A study of Mus musculus with 11 samples.

Results

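The 41 genes described here are a list of genes of the cell cycle and mitosis, measured in mouse lung after treatment with aspirin, triptolide or both. The list held 42 symbols, of which 41 matched a row of the deposited table by symbol, among 19938 genes with 1 symbol, and Ccnb1 is not analysed here. Each gene was read from the row with its highest mean level. All 41 were measured on every array and none was dropped by a filter. Top2a was the only one with 2 rows, and its other row read from 4.39 to 5.15 on the 11 arrays.

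Lung tissue came from 129S1 mice and was read on Affymetrix arrays, which report a brightness per gene and not a number of transcripts. The groups were untreated control (2 arrays), aspirin at 4 mg per kg (3 arrays), triptolide at 1 mg per kg (3 arrays), and aspirin with triptolide, called the combination here (3 arrays). Aspirin is a cyclooxygenase inhibitor, and triptolide is a plant compound that blocks the transcription factor complex TFIIH. Doses were given by gavage on 5 days a week over 2 months. The titles call the control untreated where the protocol lists PBS buffer, and the labels do not settle whether control mice were gavaged. The labels give neither sex, age nor time of collection. The labels do not say that replicates were separate animals, so p-values measure only the spread between these samples.

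Dividing cells copy their DNA in S phase and separate the copies in mitosis. Genes for replication are switched on largely by E2F factors, and genes for mitosis largely through the MuvB and B-Myb proteins with FoxM1 and the CCAAT-binding factor NF-Y. Most cells of an adult lung are not dividing, so these transcripts are usually read as a sign of the share of cycling cells. In tissue RNA a larger share of such cells and more RNA in each of them cannot be told apart.

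Because the genes stand out together on 1 array, the annotated promoter windows of 3 of them are shown. Each runs from 250 bases before to 50 bases after an annotated start of transcription. They are RefSeq windows on mouse build GRCm38.p6, read in the direction of the gene. Kif11 (chr19:37376132-37376431, plus strand) had the largest difference on that array among the mitosis genes with a promoter entry, where Mki67 and Top2a, the chromatin markers, are counted apart. Ccna2 ranked above it and is only named. E2f8 (chr7:48881547-48881846, minus strand) had the largest difference among the genes of DNA replication and its control, and E2f1 (chr2:154569377-154569676, minus strand) had the smallest of all. Capitals mark any of 3 kinds of word, searched on both strands. The first is the cell cycle homology region, TTTGAA, where MuvB binds. The second is the CCAAT box, spelled by its name, where NF-Y binds. The third is an E2F core, which may be spelled TTCCCGC, or with other middle letters as TTGGCGC, or again as TTCGCGC.
Kif11: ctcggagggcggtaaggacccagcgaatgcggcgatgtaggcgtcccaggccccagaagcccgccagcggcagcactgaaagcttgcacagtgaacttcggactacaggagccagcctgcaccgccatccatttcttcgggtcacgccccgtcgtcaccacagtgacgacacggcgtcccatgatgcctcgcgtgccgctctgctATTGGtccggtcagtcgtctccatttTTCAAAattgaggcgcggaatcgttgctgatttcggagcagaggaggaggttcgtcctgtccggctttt
E2f8: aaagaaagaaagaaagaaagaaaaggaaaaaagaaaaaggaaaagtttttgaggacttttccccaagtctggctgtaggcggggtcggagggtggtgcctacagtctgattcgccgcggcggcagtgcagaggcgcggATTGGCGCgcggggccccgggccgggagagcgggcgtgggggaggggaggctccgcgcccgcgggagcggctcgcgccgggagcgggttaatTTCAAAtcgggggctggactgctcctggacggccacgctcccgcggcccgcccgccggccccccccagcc
E2f1: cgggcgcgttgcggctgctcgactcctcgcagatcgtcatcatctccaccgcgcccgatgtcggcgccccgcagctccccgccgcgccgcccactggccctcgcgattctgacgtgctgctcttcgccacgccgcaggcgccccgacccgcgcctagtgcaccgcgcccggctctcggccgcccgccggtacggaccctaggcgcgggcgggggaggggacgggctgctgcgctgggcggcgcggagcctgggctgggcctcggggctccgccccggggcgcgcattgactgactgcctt
In Kif11 the homology region lay 19 bases and the CCAAT box 45 bases before the start, both on the opposite strand, so the former appears as TTCAAA and the latter, nearer the left end, as ATTGG. In E2f8 the homology region lay 20 bases before the start, and a CCAAT box at position -112 from it overlapped an E2F core at position -111. The E2f1 window held none of these words. Sequence outside it was not searched, and whether this start is the main one for E2f1 was not checked. The window may therefore lie away from the usual E2f1 promoter, and it does not show that this promoter lacks such words.

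Of the 41 genes, 34 had an entry, with 35 windows because Prc1 had 2. The homology region was in 57.1% of these windows, against 17.9% of all 32851 promoters of the same length. The CCAAT box was in 77.1% against 37.4%, and an E2F core in 25.7% against 8.07%. Both the CCAAT box and the homology region were in 57.1% against 6.95%. With the windows of Mki67 and Top2a left out, among 13 windows of replication genes 53.8% had an E2F core and 23.1% the homology region, whereas among 20 windows of mitosis genes 5.0% had an E2F core and 75.0% the homology region. A match is a description of letters, and neither binding nor activity was measured.

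One array, the first of the combination group (Combination 1), stood apart from the rest over all genes. The first principal component held 45.5% of the variance and placed it at 60.2, with the other 10 arrays between -15.0 and 6.8. Its correlation with the other arrays over all genes was 0.947 to 0.96, against 0.98 to 0.996 among the others. Array medians lay between 8.135 and 8.254 (log2). Lung RNA was present on every array, Combination 1 included: Sftpc, the surfactant protein C gene, read 13.62 there and 13.96 to 14.27 elsewhere. The 11 epithelial markers, Sftpc among them, had a median of -0.83 (log2) there relative to their mean on the other 10 arrays. What else that sample held was not tested. Differences that involve the combination group are therefore given with and without Combination 1.

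All 41 cell cycle genes were at their highest on Combination 1. Their level there lay above their mean on the other 10 arrays by a median of 2.69 (log2), or 6.46-fold, from 1.21 for E2f1 to 4.00 for Mki67. All 41 exceeded that mean by over 1 (log2), against 2.78% of all genes, and 33 exceeded it by over 2. None lay under its mean by over 1, as 0.742% of all genes did. The median over all genes was 0. Being highest on this array was itself common, at 19.0% of all genes. Of the 100 genes with the largest excess there, 26 were among the 41, and all 41 were among the first 500. On the other 10 arrays each gene varied far less, with an SD of 0.07 to 0.39 (median 0.13). The smallest gap between Combination 1 and the next highest array was 1.09. This is a description of 1 array and carries no test.

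**Figure D1:**
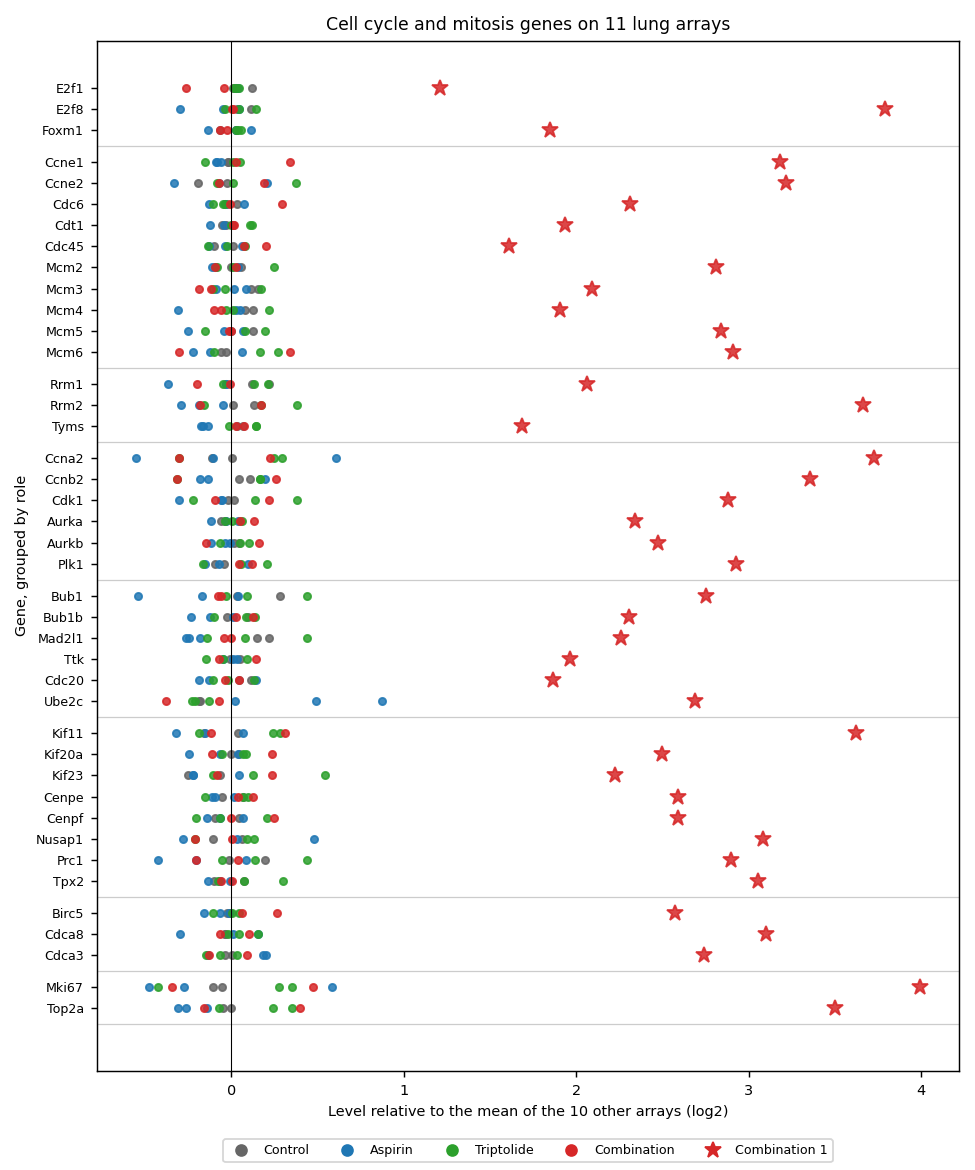
Level of each of the 41 genes on each of the 11 arrays, as the log2 difference from that gene's mean on the 10 arrays other than Combination 1 (horizontal axis), with genes grouped by role (vertical axis). Each point is 1 array, coloured by treatment, and stars mark Combination 1, which sits at 1.21 or more for every gene while the other arrays lie near 0.

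The transcription factors had the widest spread of excess, with a median of 1.85 over 3 genes. E2f1, an activator of S phase genes, had log2 levels of 8.75 and 8.86 in control, 8.78, 8.77 and 8.77 with aspirin, 8.76, 8.77 and 8.79 with triptolide, and 9.95, 8.70 and 8.48 with the combination. Without Combination 1, its combination arrays were the lowest of all 10. E2f8, an atypical E2F that represses such genes, had levels of 7.58 and 7.5 in control, 7.17, 7.42 and 7.51 with aspirin, 7.61, 7.43 and 7.51 with triptolide, and 11.26, 7.47 and 7.48 with the combination, an excess of 3.79 (13.8-fold). Foxm1, an activator of mitosis genes, had 7.83 and 7.74 in control, 7.92, 7.83 and 7.67 with aspirin, 7.84, 7.86 and 7.83 with triptolide, and 9.65, 7.78 and 7.74 with the combination, and apart from Combination 1 its groups overlapped, except that both other combination arrays lay below all 3 triptolide arrays.

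Cyclin E and the genes that license replication origins had a median excess of 2.56 (5.9-fold) over 10 genes, from Cdc45 to Ccne2. Ccne2, a cyclin E gene that drives entry into S phase, read 6.84 and 7.01 in control, 6.70, 7.24 and 6.96 with aspirin, 7.04, 7.41 and 6.95 with triptolide, and 10.25, 7.22 and 6.96 with the combination. Ccne1, its paralogue, read 7.80 and 7.80 in control, 7.76, 7.74 and 7.73 with aspirin, 7.83, 7.87 and 7.67 with triptolide, and 11, 8.16 and 7.85 with the combination, and all 3 combination arrays lay at or above 7.85, with only triptolide 2 (7.87) among the other groups reaching that level. Cdc6, which helps to load the MCM helicase, read 7.58 and 7.52 in control, 7.62, 7.42 and 7.51 with aspirin, 7.44, 7.5 and 7.51 with triptolide, and 9.86, 7.84 and 7.54 with the combination. The second combination array was the next highest for each of Ccne1 and Cdc6. Cdt1, the other MCM loader, had log2 levels of 8.66 and 8.64 in control, 8.57, 8.65 and 8.70 with aspirin, 8.80, 8.81 and 8.69 with triptolide, and 10.63, 8.71 and 8.70 with the combination. Cdc45, a helicase cofactor, had 8.10 and 7.99 in control, 8.15, 8.05 and 7.96 with aspirin, 8.17, 7.95 and 8.06 with triptolide, and 9.70, 8.29 and 8.16 with the combination. Mcm3, a subunit of the helicase, had 8.60 and 8.56 in control, 8.36, 8.46 and 8.53 with aspirin, 8.41, 8.62 and 8.34 with triptolide, and 10.54, 8.26 and 8.33 with the combination, and both remaining combination arrays were lower than every other array. The helicase subunits Mcm2, Mcm4, Mcm5 and Mcm6 exceeded their mean by 2.80, 1.91, 2.84 and 2.91 on Combination 1.

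The 3 genes of nucleotide supply had a median excess of 2.06. Rrm2, the regulated subunit of ribonucleotide reductase, read 7.64 and 7.76 in control, 7.34, 7.58 and 7.44 with aspirin, 7.80, 8.01 and 7.47 with triptolide, and 11.29, 7.80 and 7.45 with the combination. Rrm1, its large subunit, read 9.85 and 9.95 in control, 9.36, 9.70 and 9.70 with aspirin, 9.86, 9.94 and 9.68 with triptolide, and 11.79, 9.72 and 9.53 with the combination. Tyms, which makes thymidylate, read 7.98 and 8.01 in control, 7.77, 7.81 and 7.78 with aspirin, 8.09, 8.09 and 7.93 with triptolide, and 9.63, 7.97 and 8.02 with the combination. In all 3 the aspirin arrays lay below both control arrays, and for Tyms they were the 3 lowest of all.

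Cyclins and kinases of mitosis had a median excess of 2.90 (7.47-fold) over 6 genes. Ccna2, the cyclin A gene that acts from S phase into mitosis, had log2 levels of 8.10 and 8.22 in control, 7.66, 8.82 and 8.11 with aspirin, 8.46, 8.51 and 7.91 with triptolide, and 11.94, 8.44 and 7.91 with the combination. Its highest and lowest arrays after Combination 1 were both aspirin arrays, so the aspirin arrays spanned the levels of the other 3 groups outside Combination 1. Aurka, a kinase of the centrosome and spindle, had 8.17 and 8.15 in control, 8.25, 8.09 and 8.18 with aspirin, 8.27, 8.17 and 8.21 with triptolide, and 10.55, 8.34 and 8.26 with the combination, the smallest excess of these 6 at 2.34. Ccnb2, Cdk1, Aurkb and Plk1 lay at 3.35, 2.88, 2.47 and 2.93.

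Genes of the spindle checkpoint and of anaphase had a median excess of 2.28 over 6 genes. Bub1, a checkpoint kinase at kinetochores, read 6.94 and 7.19 in control, 6.74, 6.95 and 6.37 with aspirin, 6.88, 7.35 and 7.0 with triptolide, and 9.66, 6.85 and 6.83 with the combination. Mad2l1, the checkpoint protein that holds back anaphase, read 8.94 and 9.01 in control, 8.55, 8.61 and 8.53 with aspirin, 8.87, 9.23 and 8.65 with triptolide, and 11.05, 8.79 and 8.75 with the combination. Ttk, the kinase that starts the checkpoint, read 6.55 and 6.49 in control, 6.51, 6.45 and 6.53 with aspirin, 6.59, 6.45 and 6.35 with triptolide, and 8.46, 6.64 and 6.43 with the combination. The aspirin arrays had the 3 lowest Mad2l1 levels, and Ttk stayed between 6.35 and 6.64 on all arrays but Combination 1. Cdc20, the activator of the anaphase-promoting complex, had log2 levels of 8.13 and 8.06 in control, 8.16, 7.89 and 7.83 with aspirin, 8.0, 8.15 and 7.91 with triptolide, and 9.88, 8.06 and 7.98 with the combination. Ube2c, a ubiquitin-conjugating enzyme of that complex, had 8.41 and 8.42 in control, 8.62, 9.47 and 9.09 with aspirin, 8.47, 8.39 and 8.37 with triptolide, and 11.29, 8.53 and 8.22 with the combination. After Combination 1 the 3 aspirin arrays were the highest for Ube2c, at 8.62 or more, and no other array was above 8.53.

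Kinesins and proteins of the centromere and spindle had a median excess of 2.74 (6.69-fold) over 8 genes. Kif11, the motor that pushes spindle poles apart, read 7.25 and 7.45 in control, 7.09, 7.48 and 7.26 with aspirin, 7.65, 7.69 and 7.22 with triptolide, and 11.03, 7.72 and 7.29 with the combination, an excess of 3.62 (12.3-fold). Kif23, a motor of cytokinesis, read 7.79 and 7.98 in control, 7.82, 8.09 and 7.82 with aspirin, 8.17, 8.59 and 7.94 with triptolide, and 10.27, 8.28 and 7.96 with the combination. Nusap1, which binds spindle microtubules, read 7.39 and 7.56 in control, 7.22, 7.98 and 7.53 with aspirin, 7.59, 7.63 and 7.29 with triptolide, and 10.58, 7.5 and 7.29 with the combination. Triptolide 2 had the highest Kif23 level after Combination 1, and aspirin 2 the highest Nusap1 level. The other 5, Kif20a, Cenpe, Cenpf, Prc1 and Tpx2, exceeded their means by 2.50 to 3.05.

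Of the passenger complex and cell division group, with a median excess of 2.74, Birc5 (survivin) read 7.44 and 7.42 in control, 7.43, 7.29 and 7.38 with aspirin, 7.49, 7.34 and 7.45 with triptolide, and 10.02, 7.71 and 7.51 with the combination. Cdca8 (borealin), its partner in that complex, read 7.51 and 7.51 in control, 7.70, 7.56 and 7.25 with aspirin, 7.59, 7.70 and 7.53 with triptolide, and 10.65, 7.65 and 7.48 with the combination. Cdca3, an adaptor for the timing of mitotic entry, read 7.69 and 7.65 in control, 7.89, 7.87 and 7.55 with aspirin, 7.72, 7.54 and 7.62 with triptolide, and 10.43, 7.78 and 7.56 with the combination. For Birc5 all 3 combination arrays were above all 8 others, and for Cdca8 and Cdca3 the groups overlapped apart from Combination 1, save that all 3 triptolide arrays were above control for Cdca8.

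The chromatin markers of cycling cells had the largest excess, a median of 3.75. Mki67, which coats mitotic chromosomes and is the usual stain for cycling cells, had log2 levels of 8.55 and 8.5 in control, 8.13, 9.19 and 8.33 with aspirin, 8.88, 8.96 and 8.18 with triptolide, and 12.60, 9.08 and 8.26 with the combination. Top2a, which untangles DNA, had 7.75 and 7.80 in control, 7.49, 7.66 and 7.54 with aspirin, 8.04, 8.15 and 7.73 with triptolide, and 11.30, 8.20 and 7.64 with the combination. Combination 1 exceeded the mean of the others 16.0-fold for Mki67 and 11.3-fold for Top2a, while the combination arrays 2 and 3 lay on either side of control for both. The lower row of Top2a read 4.68 on Combination 1, inside its range on the other arrays.

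With Combination 1 set aside, the genes leaned high on some arrays and low on others of the same treatment. The mean level over the 41, relative to each gene's mean on the 10 arrays, was -0.01 and 0.03 in control, -0.13, 0.04 and -0.10 with aspirin, 0.09, 0.16 and -0.10 with triptolide, and 0.12 and -0.10 with the combination. Triptolide 2 was the highest of the 10 arrays for 15 genes and Combination 2 for 14. Aspirin 1 was the lowest for 15. On triptolide 1, 35 of the 41 genes lay above their mean, on triptolide 2 and Combination 2 it was 32 each, and on triptolide 3 it was 7, against 48.8%, 48.5%, 49.3% and 52.1% of all genes. Triptolide and the combination thus held arrays on both sides of the control level. The aspirin arrays had medians over the 41 of -0.12, -0.04 and -0.10, all below the 0 and 0.02 of control, and the mean on aspirin 2 included Ube2c at 0.87.

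**Figure D2:**
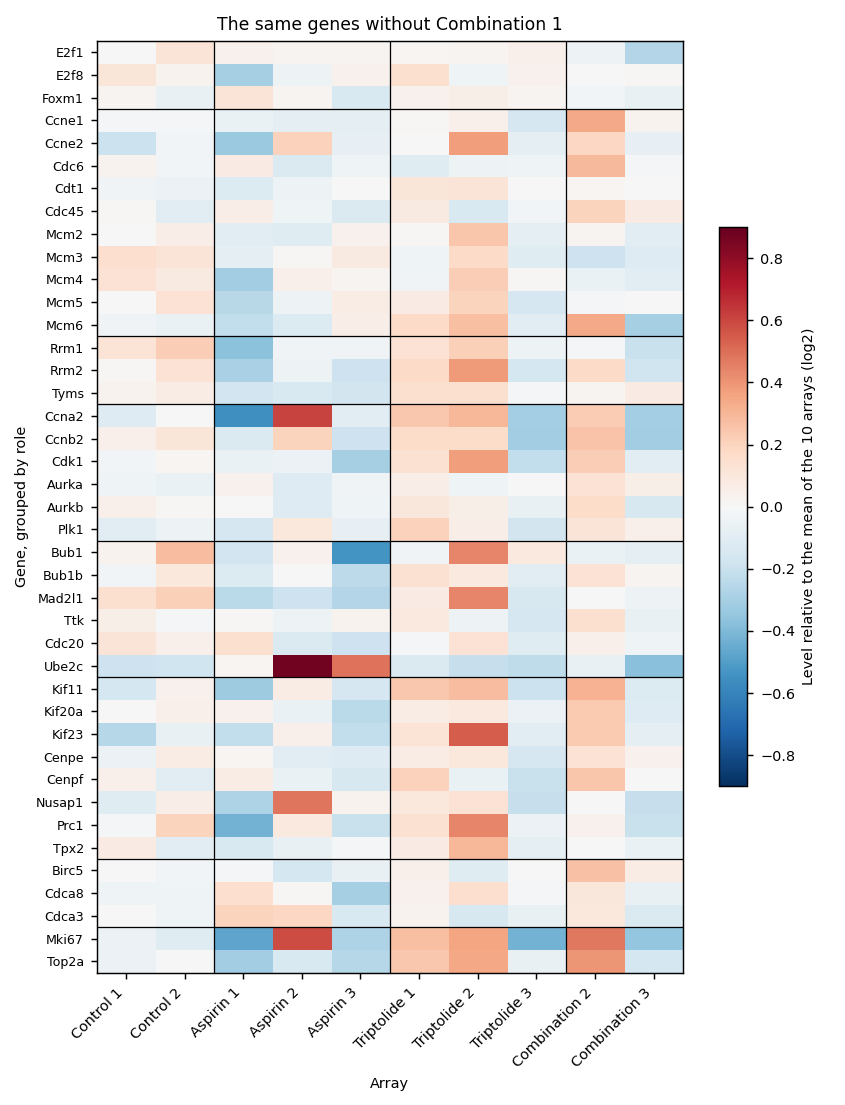
Levels of the 41 genes on the 10 arrays other than Combination 1, as log2 differences from each gene's mean on those arrays. Triptolide 1, triptolide 2 and Combination 2 lie mostly above 0 and aspirin 1, aspirin 3, triptolide 3 and Combination 3 mostly below, so arrays of 1 treatment fall on both sides.

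Correlations between genes follow the same split, and are descriptions over arrays that share RNA and scaling. Over the 11 arrays the median Pearson r of the 820 pairs was 0.98, and all were positive, which rests on Combination 1. Over the other 10 arrays the median was 0.35 and 79.1% of pairs were positive. Each gene was also compared with the mean of all the cell cycle genes, itself included. Nearest to that mean over those 10 arrays were Rrm2 (0.955), Kif11 (0.952) and Top2a (0.906). Ube2c (-0.043), Aurka (0.031) and Cdca3 (0.042) were the least like it.

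The combination was then compared with control, to ask whether the 2 drugs together altered these genes. All 41 had a higher group mean in the combination, by a median of 0.91 (log2) and from 0.24 for E2f1 to 1.45 for Mki67. No member passed limma's test at an adjusted p of 0.05 (0% of all genes passed), and none had an unadjusted p under 0.05, against 2795 of all genes. The lowest adjusted p was 0.434, for Cdc45, which differed by 0.67 ± 0.35 (SE). Without moderation the count was also 0. In the combination group the SD of Mki67 was 2.31 (mean 9.98, n = 3), against 0.04 in control (mean 8.53, n = 2). The levels of 6 genes, Ccne1, Cdt1, Cdc45, Aurka, Plk1 and Birc5, were above control on all 3 combination arrays, or 14.6% of the 41 against 14.2% of all genes. All 41 were highest on Combination 1, so this count rests on the 2 other combination arrays. On those 2 the same 6 genes were above control, or 14.6% against 23.7% of all genes, a share under the background.

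Leaving out Combination 1 took the median to 0.01, with 21 genes higher and 20 lower. The ends were then -0.28 for Mcm3 and 0.24 for Kif23, and Mki67 had a mean of 8.67 ± 0.58 (SD, n = 2). By limma 0 of the 41 passed, as against 0.00502% of all genes, and 2 had an unadjusted p under 0.05, against 2791 of all genes (14.0%). Both were lower: Mcm3 (-0.28 ± 0.11 SE, adjusted p = 0.258) and E2f1 (-0.22 ± 0.09, adjusted p = 0.326). In the fit with Combination 1 these read 0.46 and 0.24, so their sign turned. Rrm1 also turned, from 0.44 ± 0.51 to -0.28 ± 0.14 (adjusted p = 0.413). Birc5 and Ccne1 kept their sign, at 0.98 with all arrays and 0.18 ± 0.10 without for Birc5, and 1.20 and 0.20 ± 0.11 for Ccne1. Both remaining combination arrays lay below control for 8 genes (E2f1, E2f8, Mcm3, Mcm4, Mcm5, Rrm1, Bub1 and Mad2l1), or 19.5% of the 41 against 28.4% of all genes.

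**Figure D3:**
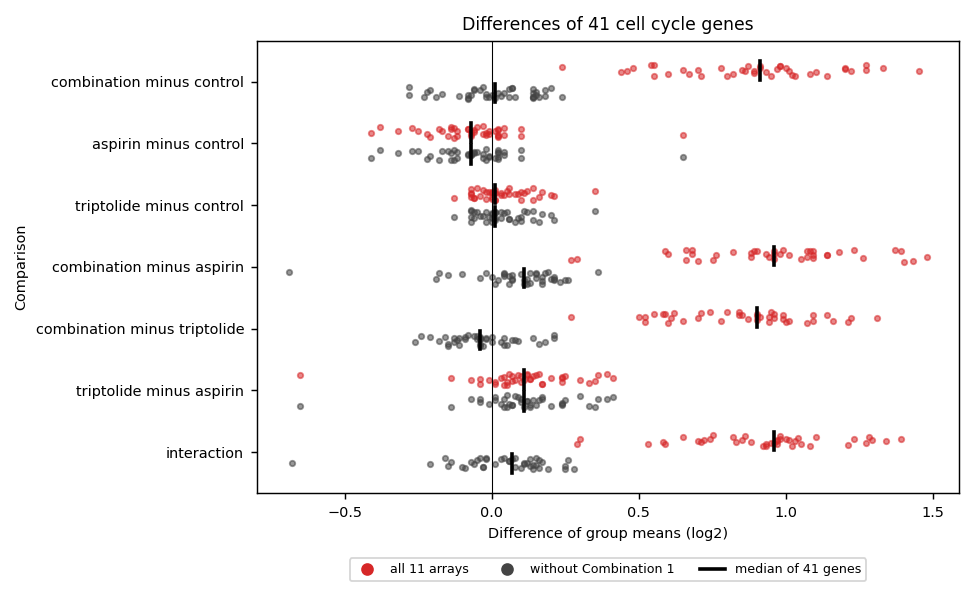
Differences of group means (log2, horizontal axis) for the 41 genes in the 6 pairwise comparisons and the interaction, with each point 1 gene, the bar the median of the 41, and results with all 11 arrays in red and without Combination 1 in grey. The combination comparisons have medians of 0.90 to 0.96 in red and -0.04 to 0.11 in grey, while the comparisons without the combination do not move.

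Aspirin was compared with control next, and all comparisons with control share its 2 arrays. Of the 41 genes 30 had a lower mean with aspirin and 11 a higher one, by a median of -0.07. None passed (0% of all genes did) and none had an unadjusted p under 0.05 with all arrays, where 609 of all genes did. The ends were Mad2l1 at -0.41 ± 0.54 (SE) and Ube2c at 0.65 ± 0.69, both with an adjusted p of 1.00. Combination 1 enters this comparison only through the pooled spread. Without it the differences were the same and their errors smaller: Ube2c had 0.65 ± 0.20 (unadjusted p = 0.00759, adjusted p = 0.572), Mad2l1 -0.41 ± 0.14 (adjusted p = 0.642), Tyms -0.21 ± 0.08 (adjusted p = 0.715) and Rrm1 -0.32 ± 0.13 (adjusted p = 0.736). These 4 were the genes with an unadjusted p under 0.05, against 1268 of all genes (6.36%), and none of the 41 passed. All 3 aspirin arrays lay below control for 10 genes (Ccne1, Mcm3, Mcm4, Rrm1, Rrm2, Tyms, Cdk1, Aurkb, Mad2l1 and Top2a), or 24.4% of the 41 against 16.0% of all genes. Ube2c alone lay above it on all 3, against 10% of all genes.

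Sex-linked genes differed between the same groups. Xist, the RNA that silences 1 X chromosome, was at 11.98 and 12.07 in the control arrays and between 6.77 and 7.0 in the aspirin arrays. It read 12.32, 9.75 and 6.61 with triptolide and 12.26 to 12.80 with the combination. The Y-linked gene Eif2s3y was at 5.29 and 5.05 in the control arrays, and between 9.26 and 9.48 in the aspirin arrays. Treatment and sex-linked level therefore cannot be told apart between aspirin and control. With the mean of 3 Y-linked genes as a covariate the median of the 41 was -0.06 for aspirin minus control. The Y-linked level hardly varied within control or within aspirin, so this fit cannot separate it from treatment. Xist and Eif2s3y also separated the combination from aspirin, with Eif2s3y at 4.58 to 6.76 in the combination. The same limit holds for that comparison. With triptolide Eif2s3y read 6.39, 9.82 and 9.56, so sex-linked level was mixed within that group. Comparisons of triptolide with control, aspirin or the combination, and the interaction, therefore also carry part of this limit.

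Triptolide blocks transcription through TFIIH in the textbook account, and its comparison with control asks whether these transcripts differed. The median difference was 0.01, with 25 genes higher and 16 lower. By limma 0 of the 41 passed (0% of all genes), 0 had an unadjusted p under 0.05 with or without Combination 1 (561 and 1005 of all genes), and the lowest adjusted p without that array was 0.973. The ends were Mcm3 at -0.13 ± 0.10 (SE) and Kif23 at 0.35 ± 0.18 in the fit without Combination 1. Top2a differed by 0.20 ± 0.16, Cdt1 by 0.12 ± 0.08, and Cdc6 and Cdc20 by -0.07 ± 0.10 and -0.07 ± 0.11. Levels of Cdt1 and Cdca8 were above control on all 3 triptolide arrays, or 4.88% of the 41 against 9.92% of all genes, and those of Cdc6 below it, or 2.44% against 13.3%. No difference between triptolide and control was detectable with this number of arrays.

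Against aspirin alone, the combination had higher means for all 41 genes, by a median of 0.96 and up to 1.48 for Top2a. None passed limma's test (0% of all genes), and 1 had an unadjusted p under 0.05, against 11.6% of all genes. This was Tyms at 0.75 ± 0.34 (SE; adjusted p = 0.429). Without Combination 1 the median was 0.11, with 33 genes higher and 8 lower, and 4 had an unadjusted p under 0.05, against 9.41% of all genes, a share near the background for 41 genes. These were Ube2c at -0.69 ± 0.20 (adjusted p = 0.265), which had read 0.29 with all arrays, Birc5 at 0.25 ± 0.09 (adjusted p = 0.395), Tyms at 0.21 ± 0.08 (adjusted p = 0.413) and Ccne1 at 0.26 ± 0.10 (adjusted p = 0.417). E2f1 and Mcm3 turned as well, from 0.27 to -0.19 ± 0.08 and from 0.60 to -0.15 ± 0.10. All 3 combination arrays exceeded all 3 aspirin arrays for 9 genes (Ccne1, Cdt1, Cdc45, Tyms, Aurka, Bub1b, Mad2l1, Cenpe and Birc5), or 22.0% of the 41 against 5.47% of all genes. Without Combination 1, where all 41 were highest, the count was also 9, or 22.0% against 11.1% of all genes. E2f1, Mcm3 and Ube2c lay below aspirin on both remaining combination arrays, or 7.32% against 13.1%. As stated for aspirin against control, treatment and sex-linked level cannot be told apart here.

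Against triptolide alone, the combination means were again higher for all 41, by a median of 0.90. By limma 0 passed (0% of all genes), 0 had an unadjusted p under 0.05 (2703 of all genes did), and the lowest adjusted p was 0.374, for Cdc45. Without Combination 1 the median was -0.04, with 12 genes higher and 29 lower, from -0.26 for Prc1 to 0.21 for Ccne1. In that fit the lowest adjusted p was 0.557, for E2f1 (-0.18 ± 0.08 SE), and 0 of the 41 had an unadjusted p under 0.05, against 1741 of all genes. E2f1, Mcm3 and Rrm1 were 0.27, 0.59 and 0.52 with all arrays and turned to -0.18, -0.16 and -0.21. Cdc6 and Birc5 were above triptolide on all 3 combination arrays, or 4.88% of the 41 against 8.36% of all genes. Without Combination 1 these 2 were still above, against 14.6% of all genes. Both remaining combination arrays were below triptolide for 5 genes (E2f1, Foxm1, Mcm3, Mcm4 and Bub1), or 12.2% of the 41 against 14.2% of all genes.

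Triptolide was also compared with aspirin, and Combination 1 is in neither group. Of the 41 genes 35 had a higher mean with triptolide, by a median of 0.11, against 46.9% of all genes. None passed with limma (0% of all genes). With the pooled spread of all 11 arrays 0 had an unadjusted p under 0.05, and without Combination 1 it was 6, against 660 and 1212 of all genes. Of these, Ube2c was lower with triptolide, by -0.65 ± 0.17 (SE; adjusted p = 0.743), and Tyms, Mad2l1 and Top2a were higher by 0.25 ± 0.07, 0.35 ± 0.12 and 0.41 ± 0.15, all with an adjusted p of 0.743. Cdca3 (-0.14 ± 0.11) and Ttk (-0.04 ± 0.09) were among the few that were lower. Tyms, Mad2l1 and Top2a were above aspirin on all 3 triptolide arrays, or 7.32% of the 41 against 5.89% of all genes, and Ube2c was below it, or 2.44% against 4.0%.

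The interaction asks whether the combination differed from the sum of the separate drug effects. It was positive for all 41 genes, with a median of 0.96 and a top of 1.39 for E2f8, and 0 passed (0% of all genes by limma; 0 of the 41 and 681 of all genes had an unadjusted p under 0.05). Without Combination 1 the median was 0.07, with 26 genes above and 15 below 0. Ube2c then read -0.68 ± 0.28 (SE; unadjusted p = 0.0323, adjusted p = 0.997) in place of 0.29, and no other of the 41 had an unadjusted p under 0.05, against 633 of all genes. E2f1 and Foxm1 turned from 0.30 to -0.15 and from 0.53 to -0.10.

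Genes around the 41 were read from 4 lists beyond them. Of 50 other S phase genes all were highest on Combination 1, with a median excess of 1.77 and 43 over 1 (log2). Asf1b, a histone chaperone, had the largest at 2.93, and Pcna, the sliding clamp of DNA polymerase, had 1.53 (levels of 12.61 on Combination 1 and 10.77 to 11.23 elsewhere). The repair enzyme Ung had the smallest at 0.56. All 74 other mitosis genes were highest there too, with a median of 2.13 and 67 over 1. Knl1, a kinetochore scaffold, reached 3.67, Hmmr 3.66 and the condensin subunit Ncapg 3.44, and Cep55, a protein of abscission, stood at 0.29. With all arrays the combination minus control differences were largest for Asf1b (0.99), the polymerase gene Pole (0.94) and the helicase gene Hells (0.91) in the first list, and for Depdc1a (1.31), Ncapg (1.26) and Hmmr (1.25) in the second. They were smallest for Usp1 (0.14), Timeless (0.15) and Ung (0.15), and for Stmn1 (0.07), Cep55 (0.20) and Psrc1 (0.20). Without Combination 1 Asf1b, Pole and Hells were at 0.01, 0.07 and 0.19, and Depdc1a, Ncapg and Hmmr at 0.29, 0.13 and 0.03. Usp1, Timeless and Ung then turned to -0.25, -0.12 and -0.01, and Stmn1 and Psrc1 to -0.22 and -0.08, while Cep55 was at 0.12. Without Combination 1 the medians of these differences were 0.01 and 0.03, and 0 of their genes passed by limma with or without that array. With all arrays 1 of 50 and 1 of 74 had an unadjusted p under 0.05, against 14.0% of all genes. The 1 of 74 was Nek2, at 9.70, 9.10 and 9.02 in the combination and 7.98 to 8.85 elsewhere. By limma it differed from control by 1.06 ± 0.25 (SE, adjusted p = 0.095). Without Combination 1 its difference stayed at 0.85 ± 0.22 (adjusted p = 0.104).

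Regulators of G1 and of quiescence had a smaller median excess, 0.22 over 33 genes. Of these, 19 were highest on Combination 1, against 19.0% of all genes, and 6 were over 1, against 2.78%. E2f4 (1.5) and its partner Tfdp1 (1.26) were high on Combination 1, and Ccnd1, the cyclin D1 gene, was low, at 11.04 against 11.38 to 12.07 elsewhere. In the combination, Cdkn2b, an inhibitor of the cyclin D kinases, differed from control by -0.67 ± 0.14 (SE; adjusted p = 0.0792), and by -0.65 ± 0.15 without Combination 1 (adjusted p = 0.0804). Its levels were 10.08 and 10.10 in control and 9.38, 9.18 and 9.70 in the combination, which is short of the threshold. Wee1, which restrains entry into mitosis, differed by 0.67 ± 0.26 (adjusted p = 0.279), with 9.03 and 9.13 in control and 10.05, 9.49 and 9.71 in the combination. Without Combination 1 its difference was 0.52 ± 0.27 (adjusted p = 0.435). E2f4 and Tfdp1 each differed by 0.42 with all arrays, and by -0.11 and 0.03 without Combination 1. Ccng2 and E2f5 each differed by -0.41, and by -0.32 and -0.28 without it. Of the 11 measured histone genes that are transcribed in S phase, 6 exceeded 1, with a median of 2.21. H2ac4, H1f5 and H1f1 stood at 4.82, 3.91 and 3.37, and H2bc4 at -0.78. Their combination minus control differences were 1.64, 1.44 and 1.27, and those of H4c4, H1f2 and H2bc4 were 0.13, -0.21 and -0.42. Without Combination 1 the first 3 were 0.04, 0.20 and 0.21, and the others -0.18, -0.10 and -0.23, so H4c4 turned sign. H1f3 was highest on Combination 2, at 7.42 against 7.15 on Combination 1. By limma it differed from control by 0.73 ± 0.21 (SE, adjusted p = 0.165), and by 0.67 ± 0.23 without Combination 1 (adjusted p = 0.219). The median over the 11 was 0.91 with that array and 0.04 without it. Histone genes have near-identical copies, so their probes may read several of them. Over the 2 lists 0 genes passed limma in any comparison with or without that array, and 4 of 33 and 2 of 11 had an unadjusted p under 0.05 for combination minus control with all arrays, against 14.0% of all genes.

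**Figure D4:**
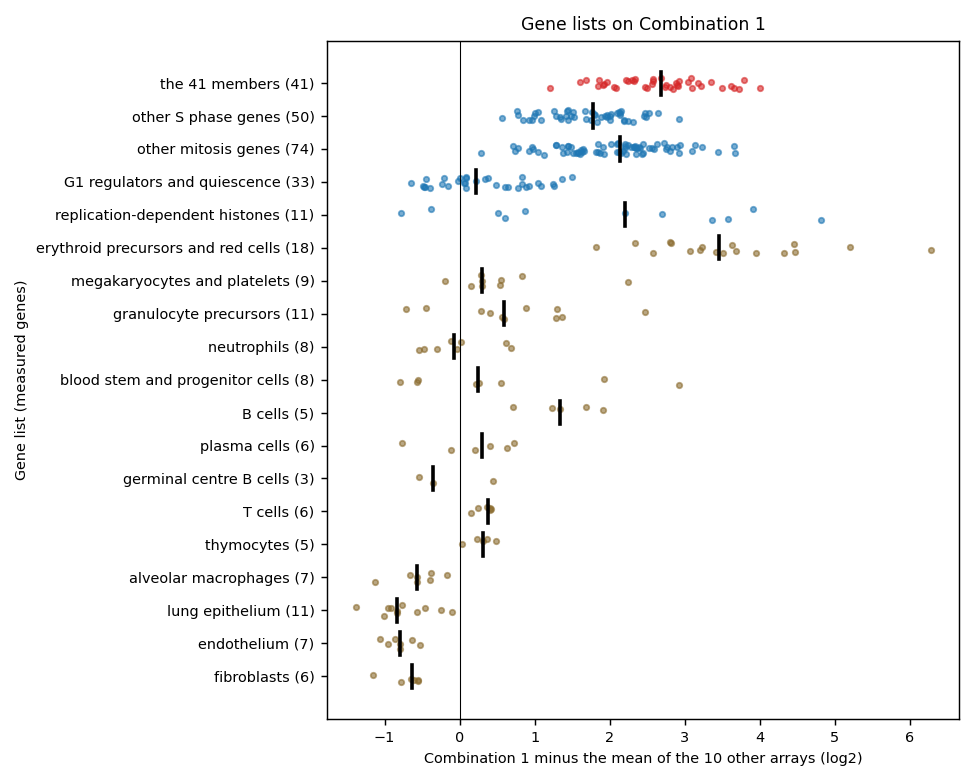
Excess of Combination 1 over the mean of the other 10 arrays (log2) for the genes of each list, with each point 1 gene and a bar at the median. The erythroid list (median 3.47) lies above the 41 cell cycle genes (2.69), and the lung epithelium, endothelium and fibroblast lists lie below 0.

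Markers of other cell types moved with the 41 genes on Combination 1, and their part in the result was not tested. All 18 measured markers of erythroid precursors and red cells exceeded the mean of the other arrays by over 1 (log2), with a median of 3.47 (11.1-fold). Car1, the carbonic anhydrase of immature red cells, read 13.54 on Combination 1 and 6.88 to 7.90 elsewhere. The Rh-associated gene Rhag read 11.18 and 5.80 to 6.48, and Klf1, the erythroid master factor, 10.33 and 7.0 to 7.46. The mean level of the erythroid list was 3.60 on Combination 1, -0.04 and -0.10 in control, 0.05 to 0.54 with aspirin, -0.32 to -0.05 with triptolide and 0.08 and -0.19 on the other combination arrays. Aspirin 2 was high for it (0.54) and for the neutrophil list (2.88), and its cell cycle mean was 0.04.

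Of 5 B cell markers all were highest on Combination 1 (median excess 1.34; Cd79a 1.69), with Ms4a1 at 11.01 there, 10.40 on Combination 2 and 10.17 on triptolide 1. The B cell list level was 0.75 on Combination 2 and 0.63 on triptolide 1, 2 of the 3 arrays on which the 41 genes leaned high. On triptolide 2, where they leaned highest, it was -0.27. Of the 11 granulocyte precursor markers 4 exceeded 1, with a median of 0.59, led by Ngp (2.47) and the elastase gene Elane (1.36). Neutrophils (-0.07), platelets (0.30), blood stem and progenitor cells (0.24), plasma cells (0.30), germinal centre B cells (-0.36), T cells (0.38) and thymocytes (0.31) had smaller medians. Markers of the lung itself were lower on Combination 1, with medians of -0.83 for 11 epithelial, -0.80 for 7 endothelial, -0.63 for 6 fibroblast and -0.57 for 7 alveolar macrophage genes, and no gene of these 4 lists lay above 0. The genes nearest to 0 in them were Foxj1 (-0.10) and Scgb1a1 (-0.25), Plvap (-0.53) and Pecam1 (-0.63), Col3a1 (-0.55) and Col1a1 (-0.56), and Marco (-0.17) and Siglecf (-0.38). The lower endothelial level was not particular to Combination 1. The mean of that list was -0.46 and -0.31 on Combination 2 and 3, against 0.41 and 0.30 in control. On Combination 2 and 3 the epithelial list had means of -0.13 and -0.05, and the fibroblast list 0.05 and 0.01.

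**Figure D5:**
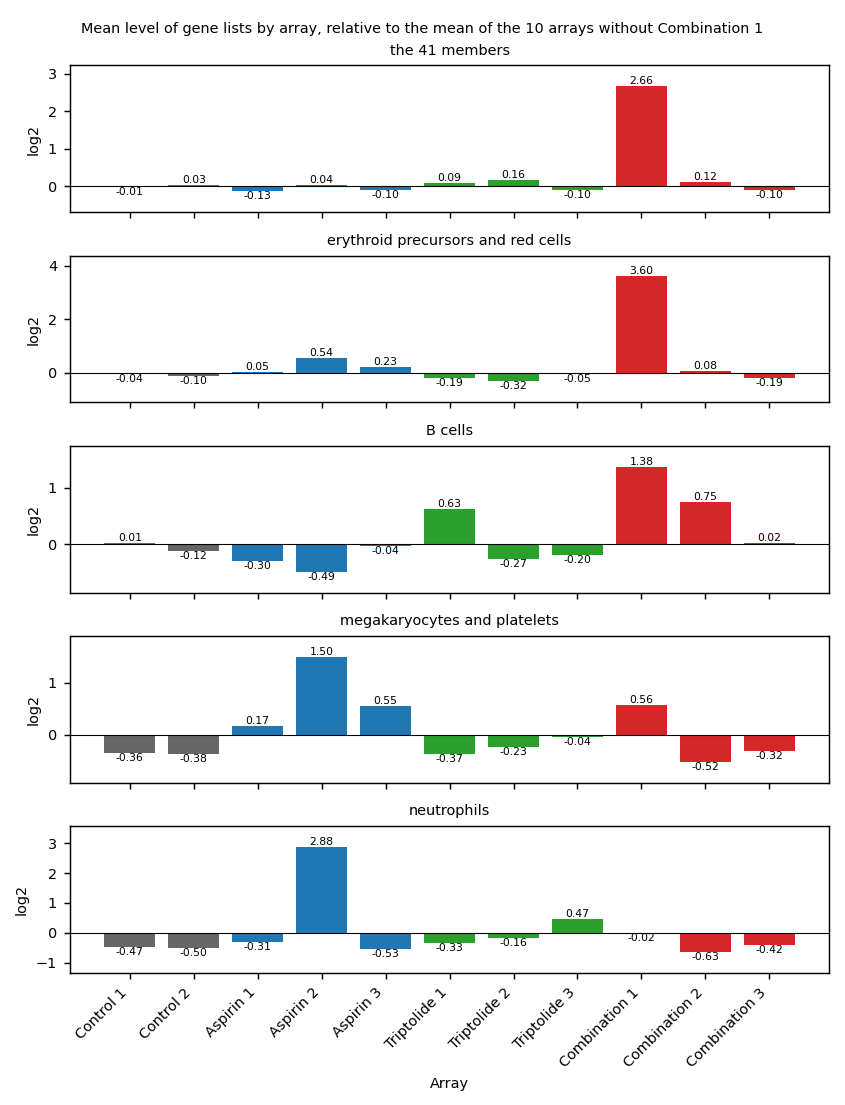
Mean level of gene lists on each of the 11 arrays, as log2 differences from each gene's mean on the 10 arrays other than Combination 1. The cell cycle genes (2.66), erythroid list (3.60) and B cell list (1.38) all peak on Combination 1, and on the other 10 arrays the erythroid list stays between -0.32 and 0.54.

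Genes outside the 41 were ranked by likeness to the mean of the 41, with predicted genes, clones, small RNAs and odour or pheromone receptor genes skipped. The remaining genes most like that mean over the 11 arrays, by Pearson r, were Ncapg, Wdhd1, Cdkn3 and Dtl (all 0.997) and Ccnf, Syce2, Ncapd2 and Rab3il1 (all 0.996). Their range over the other 10 arrays was 0.24 to 0.49, so this likeness rests on Combination 1. Over those 10 arrays alone the most alike were Atp6v0b (0.914), Timp1 (0.905), H2bc8 (0.899), H2ac4 (0.898), Chek2 (0.893), Nus1 (0.886), H2bc3 (0.884) and Hpgds (0.880). Only H2ac4, H2bc3 and Chek2 among these 8 were also over 1 (log2) above their mean on Combination 1, at 4.82, 3.58 and 1.46.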

How the data were processed

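RNA from 11 lung samples was read on 1 Affymetrix array each. The authors deposited log2 expression values, with 35556 rows and a column per array. The submitters' processing notes list RMA, which corrects background and summarises probes, and the program Partek; which step each served, and its version, the notes and labels do not say. RMA compresses differences of dim probes, so folds may be understated.

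Rows with exactly 1 symbol (21789) were kept, and the row with the highest mean stood for a gene (19938 genes). The other 1621 annotated rows had several symbols, and 12146 were unnamed. Groups came from the sample titles. One limma fit (lmFit and eBayes, limma 3.58.1 in R 4.3.3) covered all 4 groups, two-sided, with Benjamini-Hochberg adjustment over all genes and a threshold of 0.05. With 2 or 3 arrays a group, the number of arrays limits the precision. The members, the role, pathway and cell type lists and the naming rule were chosen with earlier results of these data known.

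Values on every array were to be given for Mki67 and Top2a, for the members with the largest and smallest excess of each role, and for the 3 members with the smallest p in each direction of each comparison without Combination 1. The rule added the 3 largest and smallest combination minus control differences of each pathway list and the 2 largest excesses of each cell type list, where the list median was beyond 0.5 in size. Knl1, Pcna and other genes named outside this rule were chosen after their values were seen. Of 309 symbols in the pathway and cell type lists, 282 matched.

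The replicate numbers of the titles were checked for pairing. Of 15 pairs with the same number, 5 correlated over 0.1 in their deviations, against 4 of 30 other pairs. This does not settle whether the numbers pair samples, and the main fit did not use them. Alternatives were array centring, quantile normalization, array weights, other moderation, a filter at the 25th percentile, only the compared groups, the mean of all rows, the replicate block, a Y-linked covariate and leaving out each array. The fit was first tested on simulated data.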

Additional observations from a re-analysis of the deposited data

How the results depend on the processing

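None of the 41 genes passed in any comparison under any of the 21 alternative settings, none of which was added later (146 counts, all 0); the lowest adjusted p was 0.101, from limma without combination 3 for combination minus aspirin. Precision is limited by having 2 or 3 arrays a group, and signal over background was not analysed here. Leaving out 1 array at a time gave medians over the 41 of 0.01 to 1.39 for combination minus control, 0.11 to 1.46 against aspirin, -0.04 to 1.37 against triptolide, 0.07 to 1.44 for the interaction, -0.10 to -0.05 for aspirin minus control, -0.01 to 0.08 for triptolide minus control and 0.06 to 0.17 for triptolide minus aspirin. The lowest of the first 4 ranges came without Combination 1. Array weights, which gave Combination 1 a weight of 0.149 and were computed gene by gene because the default method did not converge, took these 4 medians to 0.19, 0.32, 0.24 and 0.33. Quantile normalization gave a median excess on Combination 1 of 2.81, and the mean of all rows of a symbol 2.58. Fitting only the compared groups gave no value for the interaction.

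With the replicate number as a block, the median was 0.11 for aspirin minus control and 0.20 for triptolide minus control, and Cdc6 and Cdc20 turned to 0.07 and 0.08 in the latter. Whether the numbers pair the samples was not settled. Correlations of deviations were -0.14 to 0.33 for equal numbers, of which 5 of 15 were over 0.1. They were -0.38 to 0.34 for others, of which 4 of 30 were over 0.1. The count of called genes stayed at 0 with the block.

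Of 875 alternative values for 42 named differences, 28 turned sign, and the cause was not tested. Array weights turned combination minus control for Mcm3 (-0.16), E2f1 (-0.11) and Rrm1 (-0.13), combination minus aspirin for Ube2c (-0.51), E2f1 (-0.08) and Mcm3 (-0.08), combination minus triptolide for E2f1 (-0.08), and the interaction for Ube2c (-0.48) and E2f1 (-0.05). They turned Cdca3 to -0.08 for aspirin minus control and to 0.04 for triptolide minus aspirin. Quantile normalization turned Ttk to 0.04 for triptolide minus aspirin. Leave-one-out ranges that crossed 0 were -0.28 to 0.85 for Mcm3, -0.22 to 0.52 for E2f1 and -0.28 to 0.85 for Rrm1 (combination minus control), -0.69 to 0.85 for Ube2c, -0.19 to 0.55 for E2f1 and -0.15 to 0.99 for Mcm3 (against aspirin), -0.18 to 0.55 for E2f1, -0.21 to 0.93 for Rrm1 and -0.16 to 0.98 for Mcm3 (against triptolide), and -0.68 to 0.85 for Ube2c, -0.15 to 0.58 for E2f1 and -0.10 to 0.86 for Foxm1 (interaction), each low end without Combination 1. Nusap1 ranged from -0.10 without aspirin 2 to 0.28 for aspirin minus control, and Ttk from -0.10 to 0.02 without triptolide 3 for triptolide minus aspirin.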
